A study of Mus musculus with 18 samples.

Results

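Taar1, Taar2, Taar3, Taar4 and Taar5 are the 5 genes at the proximal end of the mouse Taar cluster, which was measured here with 15 Taar genes in a table of 23359 gene symbols. They were chosen by their symbols alone, and all 5 were found in the table in each of the 18 libraries. RNA-seq was performed on cells sorted by FACS from the main olfactory epithelium (MOE), where olfactory sensory neurons (OSNs) line the nasal cavity. In the TAAR5-Cre&L10-GFP line, 7 libraries were GFP-positive (Taar5+) and 9 were GFP-negative (control), at postnatal day 11 to 14. In the TAAR6-Cre&ZsGreen line, 1 library was ZsGreen-positive (Taar6+) and 1 was ZsGreen-negative (Taar6-line control), at postnatal day 16 to 17. All libraries, controls included, came from mice that carry a Cre allele and a reporter allele. The strain is C57BL/6 per the labels, while the study's reporting summary gives a mixed background and an older age. In these knock-in lines an internal ribosome entry site and Cre follow the stop codon of Taar5 or Taar6, so that Cre is made from the receptor's own transcript. The reporter stays on once Cre has acted, so a positive cell is one in which the targeted gene was transcribed at some time and need not be transcribing it when sorted. The labels do not say whether the libraries of a group came from separate animals, so the p-values measure only the spread between these libraries.

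TAARs are G protein-coupled receptors that are related to the receptors for dopamine and serotonin and not to the odorant receptors (ORs). In the MOE they detect volatile amines and signal through the same olfactory G protein, Gnal, as the ORs do. Mature OSNs mostly express a single receptor gene. Taar1 is the exception in the family, known for sensing trace amines in the brain rather than for a role in the nose. Of the others, Taar3 is known as a receptor for isoamylamine, Taar4 for 2-phenylethylamine, a component of carnivore urine, and Taar5 for trimethylamine, an odour of male mouse urine.

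The 5 genes lie side by side on chromosome 10 of GRCm38 (GENCODE M21), all on the + strand, within 51.4 kb and with 0 other annotated genes between them. Taar1 (ENSMUSG00000056379.3) spans 23920356 to 23921469 in 1 exon. Taar2 (ENSMUSG00000059763.4) spans 23938572 to 23941583 and has 2 exons, the first of only 24 bases, followed by an intron of 1992 bases. Taar3 (ENSMUSG00000069708.3, 23949558 to 23950589), Taar4 (ENSMUSG00000069707.1, 23960494 to 23961537) and Taar5 (ENSMUSG00000069706.3, 23970706 to 23971719) each have 1 exon. The starts of Taar2 to Taar5 follow each other at 11.0, 10.9 and 10.2 kb. The models of Taar2 to Taar5 run from the start codon to the stop codon, so they have coding bases only, between 1014 and 1044, and the inserted Cre lies outside the model of Taar5. The short first exon of Taar2, chr10:23938572-23938595, is shown with its start codon in capitals because it carries the intron that the other members lack.
Taar2 exon 1: ATGgcatcttttgaagcccagcag

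The members resemble each other in their coding sequences, which bears on whether reads can be assigned to the right gene. Identity between pairs was 58.6% (Taar3 and Taar5) to 67.0% (Taar2 and Taar3) of aligned bases. The stretch of 60 bases in which the other members, matched without gaps, were together most alike to Taar4 is printed here. Bases shared by all 5 are in capitals. It lies near the 5′ end of the coding sequence, at chr10:23920551-23920610 in Taar1, chr10:23940736-23940795 in Taar2, chr10:23949730-23949789 in Taar3, chr10:23960672-23960731 in Taar4 and chr10:23970887-23970946 in Taar5.
Taar1: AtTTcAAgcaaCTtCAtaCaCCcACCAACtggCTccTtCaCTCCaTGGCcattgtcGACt
Taar2: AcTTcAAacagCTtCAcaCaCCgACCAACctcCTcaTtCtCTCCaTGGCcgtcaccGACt
Taar3: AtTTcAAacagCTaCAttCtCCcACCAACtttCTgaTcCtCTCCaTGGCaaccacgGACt
Taar4: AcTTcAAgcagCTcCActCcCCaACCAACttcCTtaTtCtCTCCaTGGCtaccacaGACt
Taar5: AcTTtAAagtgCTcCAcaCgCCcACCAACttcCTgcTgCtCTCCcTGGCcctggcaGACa
In this stretch 33 of the 60 bases were common to all members. The longest exact run shared by a pair was 17 bases, ggttattttaattccac, in Taar2 and Taar4. Of all 50-base words of the 5 coding sequences, 0 occurred in a transcript of another gene, among 141767 transcripts searched on both strands. The coding sequences of the Taar7 and Taar8 copies, which lie farther along the cluster, were not searched in this way. Their single values are treated as less certain.

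The RefSeq table of start windows (GRCm38.p6, from 250 bases before to 50 bases after the start of the gene model) held Taar2, Taar3 and Taar5. Since these models begin at the start codon, the window lies before that codon and need not be the promoter. The letters TATAAA, those of a TATA box, were searched for on both strands. They were found in 2 of the 3 windows, against 4 of the 8 windows held for Taar6 to Taar9 and 13.6% of all 32851 windows. The match began 98 bases before the model's start in Taar2 (chr10:23938474-23938479) and 5 bases before it in Taar5 (chr10:23970701-23970706). It is in capitals in the stretches printed here, chr10:23938465-23938488 in Taar2 and chr10:23970692-23970715 in Taar5. In Taar5 the last letter of the match is the first base of the start codon, so there it overlaps the coding sequence.
Taar2 start window: ttgttaaatTATAAAgcagcacag
Taar5 start window: aacagaaccTATAAAtgagagctg
The palindrome CCCNNGGG, the core of the EBF motif, was in 0 of the 3 windows and in 13.7% of all windows, and TAATTA, a homeodomain core, was in 0 of the 3 and in 5.29% of all. These are matches of letters only.

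Before the levels were compared, the libraries were checked. In control replicate 2, the 13 Taar values above 0 were copies of those in replicate 1, and 0 other genes had equal values, so the Taar values of replicate 2 were left out and 8 controls were used. TPM carry no depth, so the sequencing depth is unknown. The number of symbols above 0, a rough guide to complexity, was 9784 to 17653 in Taar5+ libraries, 11259 to 16888 in the other controls and 5891 in control replicate 2. The summed TPM of 5 mature OSN markers (Omp, Gnal, Adcy3, Cnga2 and Rtp1) was 13531 to 24637 in Taar5+ libraries and 5337 to 26267 in controls, so the sorted cells held OSN transcripts as labelled. Taar5+ replicate 5 stood apart from the other Taar5+ libraries. Its summed OR TPM was 5525, against 225 to 1999 in the others, and its 3 sustentacular cell markers summed to 6692 TPM, against at most 1367. Its horizontal basal, progenitor and microvillar markers, 3 genes each, summed to 181, 83.4 and 175 TPM, against at most 17.5, 11.31 and 38.7 in the other Taar5+ libraries. In controls the sustentacular markers reached 6166 TPM, and the horizontal basal, progenitor and microvillar markers reached 123, 82.3 and 608 TPM. Markers of ensheathing glia (3 genes, 0 to 20.1 TPM in Taar5+ and 3.40 to 31.1 TPM in controls), immature OSNs (2 genes, 276 to 608 and 78.5 to 1331 TPM) and blood and immune cells (4 of 5 genes in the table, 5.71 to 1425 and 4.67 to 6197 TPM) overlapped between groups. In none of the 8 lists was a measured marker at 0 in all Taar5+ libraries. The part of these other cells in the values of replicate 5 was not tested, and several results that rest on it are given with and without it.

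Taar2, Taar3, Taar4 and Taar5 were all expressed in Taar5+ cells and were higher there than in controls, while Taar1 was listed at 0. The largest change was that of Taar4, at 9.01 ± 0.59 (log2 fold change on the log2(TPM + 1) scale ± SE, 7 Taar5+ and 8 control libraries). Taar2 and Taar5 followed with 6.84 ± 0.79 and 6.72 ± 0.60, and Taar3 with 5.52 ± 0.69. This order of changes was not itself tested. In bulk samples, a larger share of cells with a transcript and more transcript per cell cannot be told apart.

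Taar1, the receptor known from the brain, was listed at 0 TPM in all 17 distinct columns of Taar values, Taar6+ included, and was not tested. A value of 0 in a TPM table has no depth behind it, so how low a level it allows is unknown.

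Taar5, the gene that carries Cre in this line, served as the check of the sort. Its TPM was 47.0 in the lowest Taar5+ library, 227 in the median one and 347 in the highest (mean 209 ± 97.2, SD, n = 7). In controls it was listed at 0 in 4 of 8 libraries and reached 7.71 TPM (mean 1.60 ± 2.91, SD, n = 8). Every Taar5+ library therefore lay above every control, by limma with Benjamini-Hochberg adjustment over all genes the adjusted p was 8.99e-06, and the lowest value was that of replicate 5.

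Taar4, the 2-phenylethylamine receptor, had the highest level of the members in 7 of 7 Taar5+ libraries. Its TPM was 1947, 2160, 1917, 1194, 756, 2742 and 3689 in Taar5+ replicates 1 to 7 (mean 2058 ± 967, SD, n = 7). In controls the lowest value was 0, the median 3.33 and the highest 12.7 TPM (mean 4.62 ± 5.06, SD, n = 8). The groups did not overlap, and the difference passed the limma test (adjusted p = 1.03e-07). Among all genes of a library, Taar4 ranked between 16 and 152 by TPM in Taar5+ cells.

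Taar2, whose ligands are less well known, was the next highest. Its TPM was 121 in the lowest Taar5+ library (replicate 5), 979 in the median one and 1518 in the highest (mean 891 ± 440, SD, n = 7). In controls it was above 0 in all 8 libraries, at 0.442 to 36.8 TPM with a median of 3.24. The controls fell far apart from each other, with 28.1, 34.6 and 36.8 TPM in replicates 6, 9 and 3 and under 5 TPM in the other 5. All Taar5+ libraries were nevertheless above all controls (limma adjusted p = 0.000253).

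Taar3, the isoamylamine receptor, was the least changed of the 4 by its point estimate. Its TPM was 41.3 in the lowest Taar5+ library, 83.6 in the median one and 239 in the highest (mean 132 ± 84.0, SD, n = 7). It was listed at 0 in 4 of 8 controls and reached 13.1 TPM in the highest of them, again with no overlap (limma adjusted p = 0.000392). With replicate number as a block in the fit, its log2 fold change was 5.53 and missed the threshold (limma adjusted p = 0.0519). Replicates 3, 4 and 7 had 186 to 239 TPM and the other 4 had 41.3 to 83.6 TPM, so Taar3 varied more between Taar5+ libraries than the other members, with a coefficient of variation of 63.4% against 46.6 to 49.3%. Without replicate 5 these coefficients were 59.9% for Taar3 and 30.01 to 37.5% for Taar2, Taar4 and Taar5; the difference in spread was not tested.

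**Figure D1:**
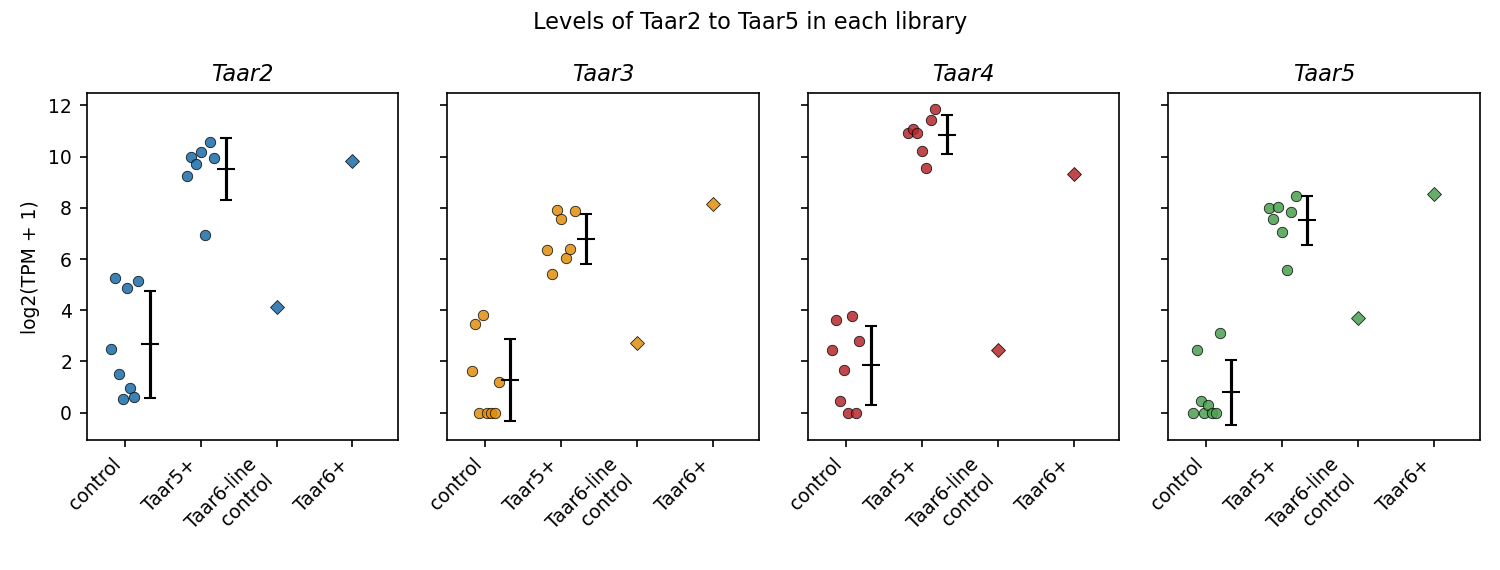
Level of Taar2, Taar3, Taar4 and Taar5 as log2(TPM + 1) in each library of the control (n = 8), Taar5+ (n = 7), Taar6-line control (n = 1) and Taar6+ (n = 1) groups; circles and diamonds are libraries, and the bars beside the circles are the mean ± SD. In each panel all Taar5+ libraries lie above all controls, and the lowest Taar5+ point of Taar2, Taar4 and Taar5 is replicate 5.

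The 4 tested members were all called higher, against a background of 0.144% of the 12502 genes tested that were called higher in Taar5+ and 0.168% (21 genes) that were called in either direction. Non-overlapping groups with the higher values in Taar5+ were found for 4 of 4 members and for 13 genes, 0.104%, of all tested. The members are themselves among these genes, and Taar5 drives the sort, so its call was fixed by the design. For each member fewer than 7 controls reached 1 TPM, so it passed the filter on low values through its Taar5+ libraries. The percentages are therefore descriptions and no test of the members as a set. The median log2 fold change was 6.78 over the 4 members and 0.02 over all genes tested. The 21 calls were sensitive to single libraries: 148 genes were called when control replicate 2 was left out and 66 when Taar5+ replicate 5 was left out. Without Taar5+ replicate 5, all 4 members were still called higher. With replicate number as a block in the fit, Taar2, Taar4 and Taar5 were still called and Taar3 was not. The members' values did not include control replicate 2, so leaving it out is no check of them.

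The other Taar genes and the neighbours outside the cluster were compared in the same fit. Of the 10 genes Taar6 to Taar9, 6 were called higher and 0 lower, with log2 fold changes from 1.75 (Taar7b) to 5.34 (Taar7f) and a median of 4.46, and 3 of them had no overlap between groups. The number called depended on the processing, from 3 with a replicate block to 10 with array weights. The 6 genes that flank the cluster, Rps12, Slc18b1, Vnn3 and Vnn1 on the side of Taar1 and Stx7 and Moxd1 beyond Taar9, did not follow. Of these, 4 passed the filter on low values and 0 were called by limma, with log2 fold changes from -2.93 to 1.08 and a lowest adjusted p of 0.334; 1 of them, Moxd1, had an unadjusted p under 0.05, and it was lower in Taar5+ cells. Vnn1, a pantetheinase gene and the nearest neighbour of Taar1, did not pass the filter.

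**Figure D2:**
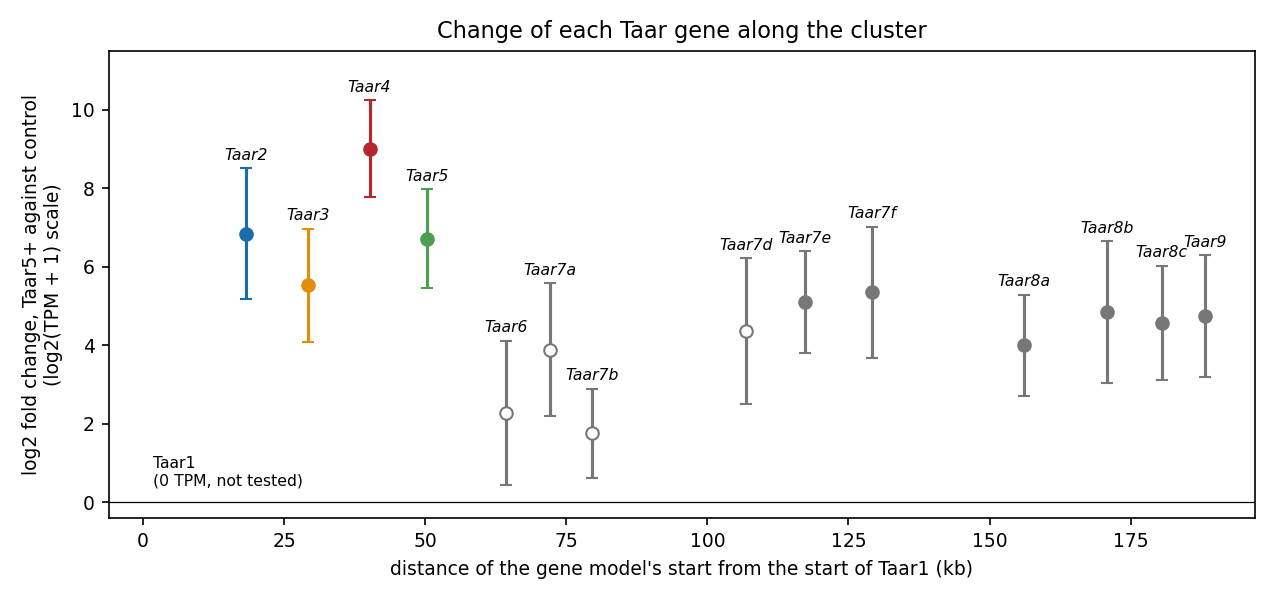
Log2 fold change (Taar5+ against control, on the log2(TPM + 1) scale, with 95% confidence intervals) of the 14 tested Taar genes against the distance of each gene model's start from the start of Taar1, in kb; filled circles are genes with an adjusted p under 0.05 and open circles are not, members are coloured and Taar6 to Taar9 are grey. Taar2 to Taar5 lie between 18.2 and 50.4 kb with changes of 5.52 to 9.01, and the grey genes lie between 1.75 and 5.34.

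To compare the make-up of the Taar transcripts between the groups, each gene was expressed as a share of the summed Taar TPM of its library. This sum was 1517 to 7804 TPM in Taar5+ libraries and only 94.5 to 403 TPM in controls. A single gene could dominate a control, and Taar7a reached 94.3% in the highest of them. Taar4 made up 39.6 ± 10.4% (SD, n = 7) of the Taar transcripts in Taar5+ cells and 2.43 ± 2.62% (SD, n = 8) in controls, a difference of 37.2 percentage points (exact two-sided permutation test, p = 0.0001554, the smallest it can give; adjusted p = 0.00218 over 14 genes). Taar5 itself had a small share, 3.87 ± 1.12% in Taar5+ cells and 0.979 ± 1.81% in controls, and this difference of 2.89 points also passed (exact permutation adjusted p = 0.0268). Since Taar5 drives the sort, its higher share is a check of the sort and no separate finding. The call for Taar5 was fragile: it was lost when Taar5+ replicate 1, 2, 3, 6 or 7 was left out (adjusted p = 0.0528 to 0.0653) and when the Taar6-line control was added to the controls (adjusted p = 0.365). With libraries of the same replicate number taken as pairs, neither Taar4 nor Taar5 passed (exact sign-flip adjusted p = 0.219 for each). The 6 pairs allow no unadjusted p below 0.0312.

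Taar2 and Taar3 rose in level but their shares did not pass the test. Taar2 had 15.8 ± 5.13% in Taar5+ cells and 7.92 ± 9.99% in controls (exact permutation adjusted p = 0.243), and Taar3 had 2.61 ± 1.36% and 2.13 ± 3.21% (adjusted p = 0.913). With the Taar7 and Taar8 copies left out of the sum, the differences of Taar2 and Taar3 turned to -3.49 and -1.53 points, with adjusted p = 0.859 for both, and those of Taar4 and Taar5 stayed past the threshold. Only 2 of the 10 other genes passed the same test, Taar6 and Taar7b, both with a lower share in Taar5+ cells. The shares of a library add up to the whole, so the large share of Taar4 lowers those of the other genes by arithmetic. Taken as a sum and given without a test, Taar2 to Taar5 made up 43.0 to 69.1% of the Taar transcripts of Taar5+ libraries and 0.568 to 41.3% in controls.

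**Figure D3:**
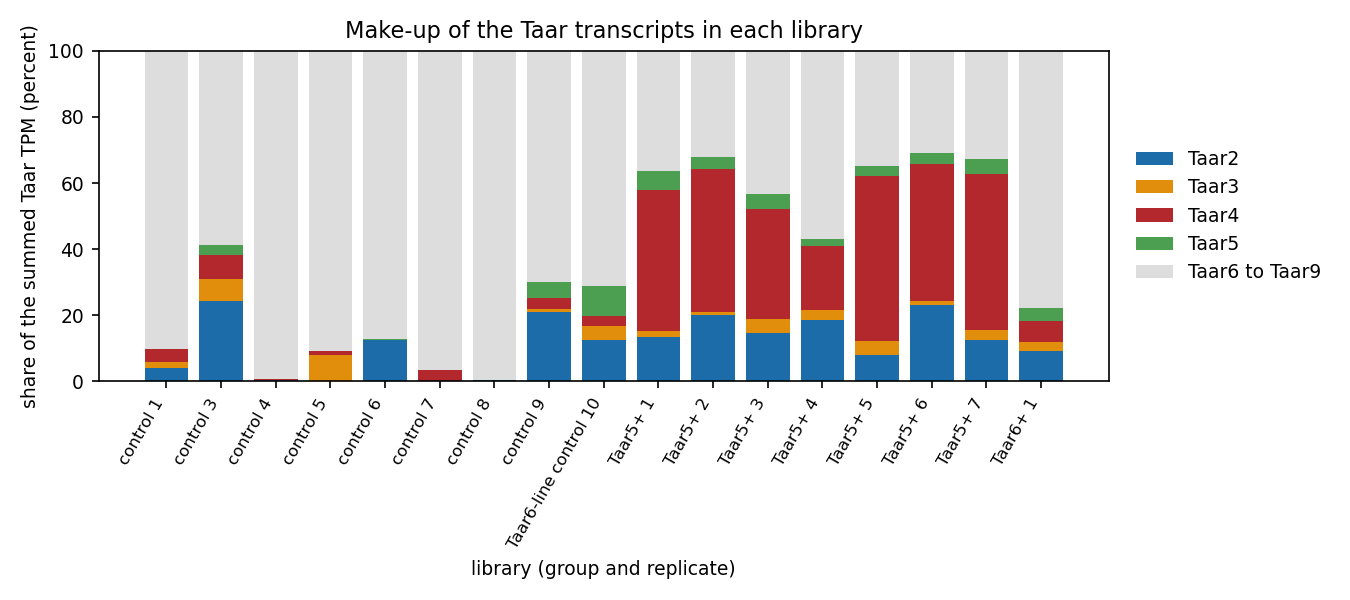
Share of the summed Taar TPM (percent) that Taar2, Taar3, Taar4, Taar5 and the group Taar6 to Taar9 took in each library, one stacked bar per library. The 7 Taar5+ bars carry 43.0 to 69.1% in Taar2 to Taar5, with Taar4 the widest segment of these in each bar and close to Taar2 in replicate 4, the controls vary from 0.568 to 41.3%, and the Taar6+ bar has 22.2%.

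Within Taar5+ cells the members kept an order of levels. TPM are corrected for length, but the lengths used are not given, and comparisons between genes rest on them. Taar4 exceeded Taar2 by 1.34 ± 0.83 (mean difference of log2(TPM + 1) ± SD, n = 7 libraries) and exceeded Taar5 by 3.35 ± 0.40, about 10.2-fold. Taar2 exceeded Taar5 by 2.004 ± 0.74 and Taar3 by 2.72 ± 1.30, and Taar4 exceeded Taar3 by 4.07 ± 1.09. Each of these 5 differences had the same sign in 7 of 7 libraries, which gives p = 0.0156 in an exact two-sided sign-flip test, the smallest possible with 7 libraries, and an adjusted p of 0.0188 over the 6 pairs. Taar5 and Taar3 at the low end of the order were not separated: Taar3 was lower by a mean of 0.72 ± 1.06 but higher in 2 of 7 libraries, replicates 4 and 5 (exact sign-flip adjusted p = 0.141). By TPM, the gene whose transcript carries Cre was therefore neither the highest nor the second highest among the members in the cells sorted by it. Whether the inserted sequence changes the reads counted for Taar5 was not tested.

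The ratios between the levels varied from library to library, least for Taar4 to Taar5 by the coefficient of variation (28.8%, against 53.6 to 65.9% for the other ratios given here). These coefficients include replicate 5 and were not recomputed without it. The ratio of Taar4 to Taar5 TPM was 7.29 to 16.1 over the 7 Taar5+ libraries (median 10.6), with the highest value in replicate 5 and the next, 12.1, in replicate 6. That of Taar2 to Taar5 ran from 2.38 to 8.64 and that of Taar3 to Taar5 from 0.218 to 1.40. That of Taar4 to Taar2 ran from 1.03 in replicate 4 to 6.25 in replicate 5, with the next highest, 3.77, in replicate 7. In replicate 4, Taar2 and Taar4 were thus nearly level, at 1154 and 1194 TPM.

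**Figure D4:**
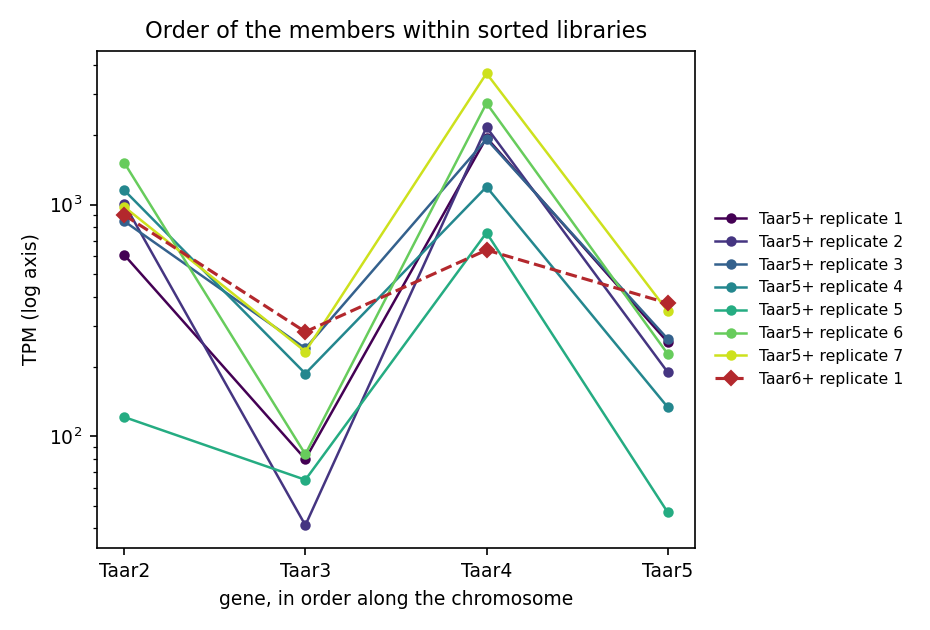
TPM (log axis) of Taar2, Taar3, Taar4 and Taar5, in chromosomal order, in the 7 Taar5+ libraries (solid lines, one per library) and the Taar6+ library (dashed line). Taar4 is the highest point of all 7 solid lines, whereas the dashed line has its highest point at Taar2.

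Libraries with more Taar4 also tended to have more Taar5. Over the 7 Taar5+ libraries Pearson's r of log2(TPM + 1) was 0.92 (exact permutation p = 0.00397, adjusted p = 0.0238 over 6 pairs) and Spearman's rho was 0.68 (exact p = 0.110, adjusted p = 0.417). Without the 2 libraries farthest from the median of Taar4, r was 0.69 (exact p = 0.233), so the relation rested in part on those libraries. Without replicate 5, which had the lowest Taar5 and Taar4, r was 0.83 (exact p = 0.05, adjusted p = 0.3). The adjusted p of the exact test also missed the threshold when replicate 2, 4, 6 or 7 was left out (0.05 to 0.15, with r from 0.91 to 0.93). The relation did not pass on shares of the summed Taar TPM either, where r was 0.45 (exact p = 0.315). The other 5 pairs had r from 0.23 to 0.79 and adjusted p from 0.208 to 0.605 by the same exact test. For Taar2 and Taar5 r went from 0.79 to -0.34 without replicate 5.

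**Figure D5:**
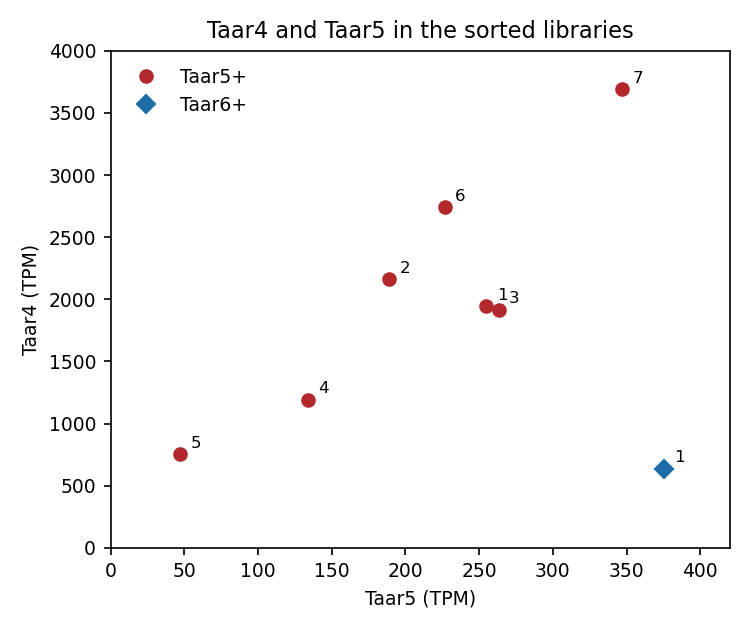
Taar4 TPM against Taar5 TPM in the Taar5+ libraries (circles, with replicate numbers) and the Taar6+ library (diamond). Among the circles, Taar4 and Taar5 are lowest in replicate 5 and highest in replicate 7, and the Taar6+ point has more Taar5 (375 TPM) and less Taar4 (637 TPM) than any circle.

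In the Taar6 line, which had 1 library per group and therefore no test, the same 4 genes were present in sorted cells. Taar2 was 902 TPM in the Taar6+ library and 16.6 in its control. Taar4 was 637 and 4.39 TPM, Taar5 was 375 and 11.97 TPM, and Taar3 was 282 and 5.62 TPM. The differences of log2(TPM + 1) were 5.68 for Taar2, 5.42 for Taar3, 6.89 for Taar4 and 4.86 for Taar5. The order differed from that of Taar5+ cells in that Taar2 and not Taar4 was highest. The ratio of Taar4 to Taar5 was 1.70 in the Taar6+ library, below the range of 7.29 to 16.1 in the Taar5+ libraries, whereas its ratios of Taar2 to Taar5 (2.40) and Taar3 to Taar5 (0.752) were inside the Taar5+ ranges. Taar4 took 6.44% of the Taar transcripts of the Taar6+ library and 19.2 to 49.9% of those of Taar5+ libraries. Line, reporter and age differ together between these groups and cannot be told apart.

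Taar4 and Taar2 were above every OR in all Taar5+ libraries. The highest single OR reached 25.3 to 106 TPM in Taar5+ libraries. Taar5 was exceeded by 4 ORs in replicate 5 and by 0 in the other libraries, and Taar3 was exceeded by 5 ORs in replicate 2, 3 in replicate 6 and 1 in replicate 5.

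Genes whose pattern was most like that of the members were sought among all genes tested, by Pearson's r of log2(TPM + 1) over the 15 Taar5-line libraries with Taar values of their own. These r are descriptions, since the difference between Taar5+ and control libraries sets most of them. Taar4 and Taar5 had each other as the most similar gene (r = 0.97), Taar2 had Taar5 (r = 0.96) and Taar3 had Taar4 (r = 0.92), and 4 or 5 of the 10 most similar genes of each member were Taar genes. Outside the Taar and OR families, Ppa1, an inorganic pyrophosphatase, was among the 3 most similar genes of all 4 members (r = 0.88 to 0.93), with 5442 ± 1941 TPM (SD, n = 7) in Taar5+ libraries and 946 ± 142 TPM (SD, n = 8) in controls. Psmd14, a deubiquitinase of the proteasome lid, was among those of Taar2, Taar4 and Taar5 (r = 0.89 to 0.92). Rpl10a, a protein of the large ribosomal subunit, was among those of Taar3, Taar4 and Taar5 (r = 0.89 to 0.92), with 715 ± 284 TPM (SD, n = 7) in Taar5+ libraries and 164 ± 67.3 TPM (SD, n = 8) in controls. The reporter of this line, L10-GFP, is a fusion with a ribosomal L10 protein, and whether its reads were counted in the value of Rpl10a was not tested. Vwf, the von Willebrand factor of blood vessels and platelets, was among those of Taar2 and Taar3 (r = 0.90 and 0.87) at only 3.37 ± 1.66 TPM in Taar5+ libraries (SD, n = 7).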

How the data were processed

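Smart-seq2 libraries were prepared by the authors from FACS-sorted MOE cells, who mapped reads to mm10 with Hisat2 2.1.0 and quantified genes with Cufflinks 2.2.1. The submitters' processing notes also name Trimmomatic 0.36 and DESeq2. The deposited values are TPM (transcripts per 1000000, corrected for length), and the annotation, filters, strand handling and treatment of multi-mapping reads are not given in the sources used here. Here, the 23847 rows were summed to 23359 symbols. The members, gene lists, tests and alternatives were chosen with earlier results of these data known.

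The limma package 3.58.1 (R 4.3.3, lmFit, eBayes with trend) was applied to log2(TPM + 1) of genes that reached 1 TPM in 7 or more of the 16 libraries. This scale understates changes of low genes. P-values were adjusted by Benjamini-Hochberg over all tested genes, with a threshold of 0.05. The Taar rows of control replicate 2 were set to missing. Shares were compared by exact permutation over 6435 arrangements, pairs of levels by 128 sign flips and correlations by 5040 pairings, all two-sided (Python 3.11.15, numpy 2.4.6, pandas 2.3.3). Coding sequences from GENCODE M21 were aligned globally with Biopython 1.88. The limma and permutation steps were tested on simulated data. All 5 members were to be named with their values, other Taar genes and the neighbours by counts and ranges, and for each of Taar2 to Taar5 the 3 most similar genes outside the Taar and OR families. Alternatives were another pseudocount, other filters, normalizations and variance models, other treatments of the copied values, added libraries, a replicate block and leaving out each library.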

Additional observations from a re-analysis of the deposited data

How the results depend on the processing

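Each log2 fold change of Taar2 to Taar5 was recomputed under 29 alternatives, and 115 of the 116 values kept their direction and side of the threshold. Taar3 with a replicate block was the exception (5.53, adjusted p = 0.0519). The 21 genes called became 36 with quantile normalization, 1349 with array weights, 148 with control replicate 2 left out for every gene and 12 with the replicate block, and ranged from 16 to 148 when single libraries were left out; the cause was not tested. The labels do not say that a replicate number marks a shared animal or day. Libraries with the same number deviated together with r of -0.01 to 0.28, over 0.1 in 5 of 7 pairs. Among control replicates 1 to 7, 4 of 7 Taar5+ libraries correlated best with the control of their own number, and the remaining controls were not compared. This is a hint of a pairing from the data, and the numbers were not taken as a pairing because 2 pairs fell short. The pair of number 2 (r = 0.03) was 1 of these and holds control replicate 2, the library with 5891 symbols above 0. Whether the libraries are paired is therefore not settled. Shares that passed numbered 4 of 14, and 1 to 4 when single libraries were left out. Under the block, 0 passed the exact sign-flip test and 2 had an unadjusted p under 0.05 (Taar4, 36.3 points, and Taar5, 3.36 points), with 6 pairs that allow no p below 0.0312. With the sum over Taar2 to Taar6 and Taar9, the Taar2 and Taar3 differences turned to -3.49 and -1.53 points. The order of pairs kept 5 calls under all 9 alternatives. Among correlations, 1 pair passed, and 0 passed on the TPM scale (1 with an unadjusted p under 0.05), without the 2 farthest libraries (0) or on shares (0), and 0 to 1 when single libraries were left out. Without the 2 farthest libraries r turned to -0.38 for Taar2 and Taar3, -0.32 for Taar2 and Taar5 and -0.24 for Taar3 and Taar4. On shares r turned to -0.72 for Taar2 and Taar3, -0.42 for Taar2 and Taar4, -0.27 for Taar2 and Taar5, -0.12 for Taar3 and Taar4 and -0.16 for Taar3 and Taar5. With single libraries left out, r ran from -0.021 to 0.54 for Taar2 and Taar3, -0.34 to 0.88 for Taar2 and Taar5 and -0.064 to 0.41 for Taar3 and Taar4. Depth is unknown in TPM, so no counting error can be given for low or 0 values.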
